A study of Mus musculus with 12 samples.

Results

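Scx peaks in CpG-island-like promoters were the subject: stretches of 200 bp, enriched in the ChIP of Scx over input, whose midpoint lay between -1000 and +100 bp of the transcription start site (TSS) of a GENCODE M21 basic transcript, and whose own sequence had a GC share above 0.55 and an observed over expected CpG ratio above 0.6. Of 12097 Scx peaks, 1666 met this rule, 13.8% of all (95% Wilson interval 13.2 to 14.4). A further 470 peaks lay in the same promoter span without this base composition, and these CpG-poor promoter peaks served for comparison. The rule uses position and sequence only, so neither its place limits nor the high GC content of its members is a finding.

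Scleraxis (Scx) is a basic helix-loop-helix transcription factor of tendon progenitors and tendon cells, and proteins of this family bind E-boxes, CANNTG, as dimers with partners such as Tcf3, Tcf4 and Tcf12. CpG islands are GC-rich stretches that have kept their CpG dinucleotides and are mostly free of DNA methylation. They hold the promoters of most housekeeping genes and many developmental genes, often have several start sites, and are commonly rich in GC boxes bound by Sp and Klf factors.

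The peaks came from Scx Flag/Flag embryos at E13.5, in which both copies of endogenous Scx carry a 2xFLAG tag, with 3 anti-FLAG ChIP samples and 3 input samples, each made from 10 pairs of forelimbs pooled. Transcript levels came from GFP+ forelimb cells sorted from E15.5 embryos, 3 samples of Scx-/- embryos and 3 of control littermates, described as wildtype for Scx. The paper's Results also name Scx+/- embryos among those sorted, so whether every control was wildtype is uncertain. Both groups carried Scx-GFP, a transgenic reporter of Scx expression. The paper describes its signal in Scx-/- forelimbs as weaker and disorganized, so the sorted cells may differ between the groups. The ChIP used whole forelimbs with many other cell types, while the RNA came from a sorted population at a later age. No values of single samples were used here, only merged peaks and, for each group, the authors' mean FPKM, a fragment count scaled by gene length and library size, so no value below has an error between replicates, the depth behind each peak is unknown, and the intervals given cover counting error only.

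In the expression table, Scx itself had a mean of 41.9 FPKM in Scx-/- cells, against 88.6 FPKM in control cells. Per the paper, a reporter cassette replaces the whole coding sequence in the Scx-/- allele. Its in situ hybridization with a coding probe found no Scx mRNA in Scx-/- embryos. The level in Scx-/- cells is thus not one of intact Scx mRNA, and where its reads lie was not tested. The 8 tendon markers checked were all at or above 1 FPKM, with summed levels of 2587 FPKM in Scx-/- cells and 3221 FPKM in control cells. Markers of other cells were present at lower sums: 5 muscle genes summed to 375 FPKM in Scx-/- cells and 341 FPKM in control cells, 4 globin genes to 237 FPKM in Scx-/- and 176 FPKM in control cells, and 4 cartilage genes to 78.8 FPKM in Scx-/- and 101.4 FPKM in control cells. Endothelial, epidermal and macrophage markers summed to 17.6 FPKM or less in either group. The muscle, globin, endothelial and epidermal markers were also all at or above 1 FPKM. The lists differ in length and genes, so their sums do not measure the purity of the sorted cells. The sex of the embryos was not given in the sources used here, and Xist, the RNA of the inactive X chromosome, had a mean of 24.9 FPKM in Scx-/- cells and 175 FPKM in control cells. The mix of sexes may thus differ between the groups, and in the ratios below it cannot be told apart from genotype. Per the paper, genes of chromosome Y were dropped and sex was adjusted for. Whether the mean FPKM carry that adjustment is unknown.

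The peaks shown here are those of the genes named below that lie wholly outside annotated exons, in order of transcript level, 5 with and 5 without the sequence called the Scx core below (the form CAGATG, which reads CATCTG on the opposite strand, the palindrome CAGCTG, or the other palindrome CATATG). Each is the 200 bp of the peak in mm10 (GRCm38), written along the strand of the gene. In the first set the capitals mark Scx core sites.
Nfatc4 (chr14:55825421-55825620, plus strand, midpoint at -280 bp): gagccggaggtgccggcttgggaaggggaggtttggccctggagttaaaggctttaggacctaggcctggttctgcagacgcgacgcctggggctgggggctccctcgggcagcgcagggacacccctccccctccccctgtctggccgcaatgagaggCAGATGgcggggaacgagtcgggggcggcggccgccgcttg
Kmt2a (chr9:44881341-44881540, minus strand, midpoint at -145 bp): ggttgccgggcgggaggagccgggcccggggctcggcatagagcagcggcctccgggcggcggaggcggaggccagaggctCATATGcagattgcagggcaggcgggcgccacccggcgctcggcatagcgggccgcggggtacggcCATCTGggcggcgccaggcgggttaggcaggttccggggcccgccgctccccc
Spred2 (chr11:19924038-19924237, plus strand, midpoint at -237 bp): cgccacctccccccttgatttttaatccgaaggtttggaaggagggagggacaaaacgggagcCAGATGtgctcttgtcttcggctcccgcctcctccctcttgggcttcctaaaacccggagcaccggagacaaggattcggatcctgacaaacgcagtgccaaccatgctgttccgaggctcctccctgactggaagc
Nnt (chr13:119409072-119409271, minus strand, midpoint at -175 bp): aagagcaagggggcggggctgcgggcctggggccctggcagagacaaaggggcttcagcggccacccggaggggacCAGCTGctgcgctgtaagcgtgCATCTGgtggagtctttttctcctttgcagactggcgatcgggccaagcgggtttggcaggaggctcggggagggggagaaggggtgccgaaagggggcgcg
Bhlhe40 (chr6:108659966-108660165, plus strand, midpoint at -563 bp): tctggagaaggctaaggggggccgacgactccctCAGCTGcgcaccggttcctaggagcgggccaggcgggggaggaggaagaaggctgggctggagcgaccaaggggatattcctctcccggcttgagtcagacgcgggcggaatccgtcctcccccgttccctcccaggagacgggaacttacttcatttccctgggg

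These 5 peaks had a GC content of 58.0 to 78.0%. The core sites were centred 62 bp downstream of the midpoint in Nfatc4, at -16 and +50 bp in Kmt2a, at -34 bp in Spred2, at -21 and +1 bp in Nnt and at -63 bp in Bhlhe40. Nnt thus held both sites next to the middle of its peak, while Nfatc4 and Bhlhe40 held theirs nearer to an edge. In the second set, which has no Scx core, the capitals mark GC boxes (GGGCGG or CCGCCC).
Nedd4 (chr9:72662024-72662223, plus strand, midpoint at -222 bp): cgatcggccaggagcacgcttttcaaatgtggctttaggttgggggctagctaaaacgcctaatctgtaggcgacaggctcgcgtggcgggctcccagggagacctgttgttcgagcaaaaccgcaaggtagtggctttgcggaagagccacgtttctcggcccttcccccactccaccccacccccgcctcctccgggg
Uqcrh (chr4:116075757-116075956, minus strand, midpoint at -786 bp): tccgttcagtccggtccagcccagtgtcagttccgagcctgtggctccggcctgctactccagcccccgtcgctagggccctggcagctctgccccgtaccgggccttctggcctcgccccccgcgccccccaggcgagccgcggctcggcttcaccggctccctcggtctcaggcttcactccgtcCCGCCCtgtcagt
Polr2m (chr9:71485425-71485624, minus strand, midpoint at -567 bp): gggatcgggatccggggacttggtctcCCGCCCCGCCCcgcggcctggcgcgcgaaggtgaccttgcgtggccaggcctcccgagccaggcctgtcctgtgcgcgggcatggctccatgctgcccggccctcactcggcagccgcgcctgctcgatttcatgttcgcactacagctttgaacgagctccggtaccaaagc
Eif4g1 (chr16:20673090-20673289, plus strand, midpoint at -230 bp): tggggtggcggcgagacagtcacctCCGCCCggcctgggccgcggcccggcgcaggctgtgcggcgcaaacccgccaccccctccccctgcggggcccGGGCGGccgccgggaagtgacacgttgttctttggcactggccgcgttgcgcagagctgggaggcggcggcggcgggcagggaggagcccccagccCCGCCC
Crebbp (chr16:4214178-4214377, minus strand, midpoint at -281 bp): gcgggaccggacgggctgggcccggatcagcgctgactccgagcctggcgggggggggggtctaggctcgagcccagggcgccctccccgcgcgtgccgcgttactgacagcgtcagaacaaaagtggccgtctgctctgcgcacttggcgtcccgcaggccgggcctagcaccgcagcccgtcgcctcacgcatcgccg

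Eif4g1 had 3 GC boxes, Polr2m 2 that overlap and Uqcrh 1, while the peaks of Nedd4 and Crebbp had none. Both of these last 2 peaks held 1 E-box of another form (CANNTG outside the core forms).

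Both the place limits and the composition of the members come from the rule, and CpG-island-like sequence is itself most common near start sites, so the places of the members are given as a description without a test. Among the 1666 members, 931 (55.9%, 53.5 to 58.3) had their midpoint within 100 bp of the nearest TSS, against 151 of the 470 CpG-poor promoter peaks (32.1%, 28.1 to 36.5). Of all promoter positions with the same composition, taken every 10 bp with or without a peak, 44.8% lay that near to a TSS. Among the 27371 peak-free windows used below for motif counts, whose midpoints follow a grid of 200 bp around each TSS, the share was 70.5%, above that of the members. The median distance was -58.5 bp in members (quartiles -268 and 43 bp) and -225.5 bp in CpG-poor promoter peaks (quartiles -537 and -59.3 bp). The stretch from the TSS to +100 bp held 655 members (39.3%) and 76 CpG-poor promoter peaks (16.2%), against 24.4% of all CpG-island-like positions and 40.8% of the peak-free windows. More than 500 bp upstream lay 172 members (10.3%) and 130 CpG-poor promoter peaks (27.7%), against 15.9% of the positions and 7.91% of the windows. The grid of the windows puts midpoints exactly 100 bp on either side of each TSS, on the limit counted. The shares of the windows by place thus follow from the grid and are no reference for place. Against the positions taken every 10 bp, the members lay nearer to the start site in each of these counts. This difference was not tested, and no preference for the start site is read from it.

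Peaks of this composition did not stop at the downstream limit of the rule. When the span was opened to +1000 bp, the count of peaks with CpG-island-like composition was 2916, and 1250 of these (42.9%) lay beyond the members. The 100 bp from +100 to +200 bp held 696 such peaks and the 100 bp before it 649, the fullest bins of the whole range, against 276 in the last 100 bp upstream of the TSS. Peaks without the composition were spread more evenly, with 75, 76 and 56 in the bins from -100, 0 and +100 bp. The span of the rule thus ended where such peaks were most frequent. Among the members, 964 (57.9%) had their midpoint inside an annotated exon.

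**Figure D1:**
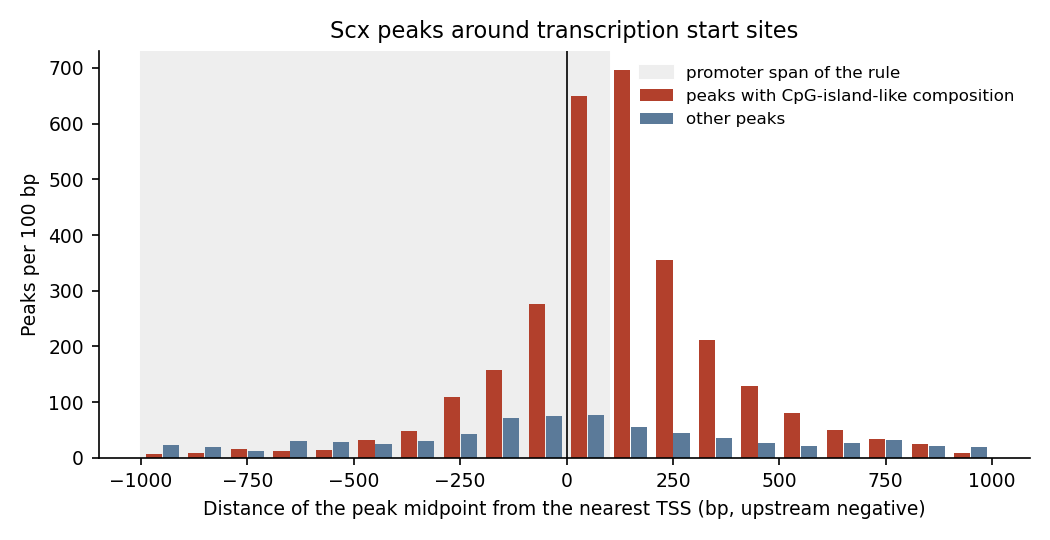
Number of Scx peaks per 100 bp of distance between the peak midpoint and the nearest TSS within 1000 bp, for peaks with CpG-island-like composition and for other peaks. The shaded span is the promoter span of the rule, and the red bars peak at 649 and 696 peaks on either side of its downstream limit.

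In base composition the members had a median GC content of 73.0% (quartiles 68.5 and 77.0, from 55.5 to 86.0), and a median observed over expected CpG of 0.912 (quartiles 0.808 and 1.01). Most were therefore far inside the limits of the rule. Start sites on both strands fell within the promoter span of 232 members (13.9%, 12.3 to 15.7), against 27 CpG-poor promoter peaks (5.74%). This share was 13.0% in CpG-island-like promoter windows without a peak, so it was close to that of such promoters in general.

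Those peak-free windows were the reference for all motif counts. They were 27371 tiles of 200 bp that did not overlap one another, lay in the same span around a TSS, passed the same composition rule and were at least 500 bp from any Scx peak. Their median GC content was 66.0% (quartiles 61.0 and 71.5), lower than that of the members, so the main odds ratios are given with a Mantel-Haenszel odds ratio over 4 strata of GC content, an addition chosen after seeing the data. Adjusted p-values are from Fisher's exact test, two-sided, with Benjamini-Hochberg adjustment over 27 motifs. They describe regions of 1 merged peak set, and regions are not replicates.

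The core forms are those of the motif that the paper found de novo in its full set of Scx peaks, which includes the members. A higher frequency in members is therefore not independent of how the motif was chosen. For CAGATG and CATCTG the paper also cites preferential binding of Scx in gel shift assays. The Scx core was present in 444 of 1666 members (26.7%, 24.6 to 28.8) and in 4297 of 27371 peak-free windows (15.7%, 15.3 to 16.1). The odds ratio was 1.95 (95% interval 1.74 to 2.19, adjusted p = 3.93e-27), and it was 2.26 (2.01 to 2.54) over the GC strata. Most members thus had no core: 1222 had 0 sites, 368 had 1 site, 69 had 2 sites and 7 had 3 or more. In CpG-poor promoter peaks the share was 65.5% (61.1 to 69.7).

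The forms of the core differed in frequency. CAGCTG was in 18.8% of members and 10.02% of peak-free windows (odds ratio 2.09, adjusted p = 9.54e-25, and 2.06, 1.80 to 2.35, over the GC strata). CAGATG or CATCTG was in 9.30% of members and 6.0% of windows (odds ratio 1.61, adjusted p = 1.50e-06, and 2.40, 2.01 to 2.88, over the GC strata). CAGCTG thus had the higher odds ratio without the strata and the lower one over them, and the difference between the forms was not tested. CATATG was rare in this GC-rich sequence, in 11 members (0.660%) and 0.435% of windows (odds ratio 1.52, adjusted p = 0.247, and 2.77 over the GC strata, adjusted p = 0.00516). In CpG-poor promoter peaks CAGATG or CATCTG was the more frequent form, in 41.1% against 33.4% for CAGCTG, the opposite of the order in members.

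Neither the distance from the start site nor the GC content removed the higher frequency of the core. By distance, core shares in members and windows were 25% and 17.0% upstream of -500 bp, 23.9 and 15.9% between -500 and -200 bp, 29.2 and 14.1% between -200 bp and the TSS, and 26.9 and 16.6% downstream of it. By GC content, 44.6% of members at 55 to 60% GC held a core, 38% at 60 to 65%, 29.9% at 65 to 70% and 23.0% above 70%. The windows of the same strata were at 17.8, 16.7, 16.8 and 12.6%. The core was thus more frequent in members in every stratum, with odds ratios of 1.63 to 3.72, and in both groups it was scarcest where GC content was highest. The members with the highest CpG ratio, above 1.0, held a core in 18.6%, against 9.91% of such windows.

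Within the peaks, core sites sat near the middle. Of 527 core sites in members, 341 (64.7%, 60.5 to 68.7) were centred within 50 bp of the peak midpoint, where 51.8% of the searched positions lie (exact binomial test, two-sided, p = 2.53e-09). In peak-free windows, 51.6% of 4751 sites were so placed (exact binomial p = 0.783). The median distance from the midpoint was 37.0 bp in members and 49.0 bp in windows. CpG-poor promoter peaks had 71.4% of 441 sites within 50 bp, with a median distance of 29.0 bp. GC boxes in members were not placed in this way, with 50.7% of 2042 sites within 50 bp (exact binomial p = 0.341).

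**Figure D2:**
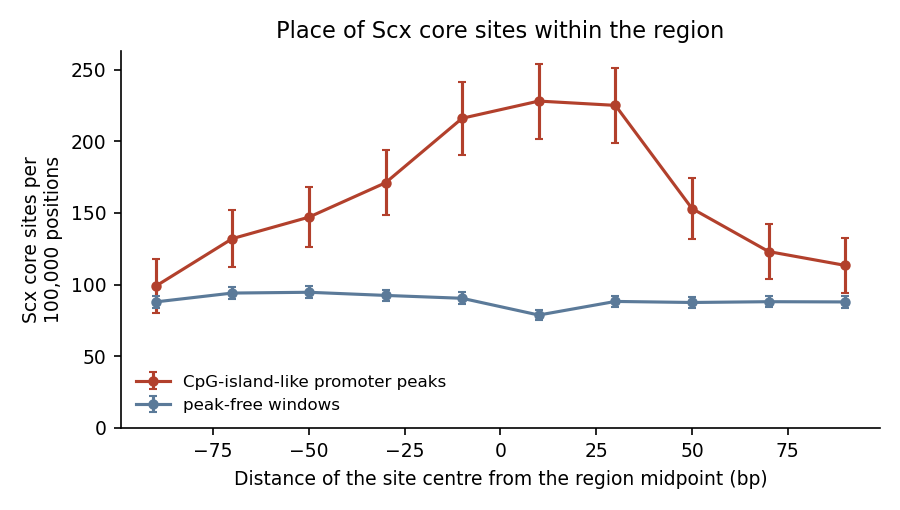
Density of Scx core sites, in sites per 100000 searched positions, by distance of the site centre from the region midpoint in bins of 20 bp, for CpG-island-like promoter peaks and for peak-free windows. Bars are 1 Poisson standard error. The members run from 98.9 at the left edge to 228 just past the midpoint, while the windows stay between 78.7 and 94.6.

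E-boxes as a whole, CANNTG of any form, were in 769 members (46.2%) and 43.9% of windows (odds ratio 1.09, 95% interval 0.991 to 1.21, adjusted p = 0.143), and the odds ratio was 1.32 over the GC strata (adjusted p = 6.64e-07). The higher frequency was not shared by all forms. CACGTG, the form of Myc and Usf factors, was less frequent in members, in 3.54% against 5.95% of windows (odds ratio 0.580, adjusted p = 7.34e-05, and 0.640 over the GC strata). CACCTG, the form of Snail and Zeb factors, was in 14.3 and 14.8% (odds ratio 0.961, adjusted p = 0.698).

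Nfat sites were scarce. The Nfat core TGGAAA was in 88 members (5.28%) and in 7.41% of windows (odds ratio 0.697, adjusted p = 0.00318), but over the GC strata the odds ratio was 1.22 (0.969 to 1.52, adjusted p = 0.176), so that its direction depended on GC content. CpG-poor promoter peaks held it in 29.8%.

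Among motifs of other factors, the GC box was the most frequent, in 1107 members (66.4%, 64.1 to 68.7) and 53.3% of windows (odds ratio 1.73, adjusted p = 5.58e-25). Over the GC strata its odds ratio was 0.999 (0.894 to 1.12), so the difference was not seen between regions of like GC content. A GC box was in 65.8% of the members with a core and 66.7% of those without, and 407 members (24.4%) had neither.

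The CCAAT box of NF-Y, an activator of many cell cycle and metabolic promoters, was the motif that was most depleted. It was in 133 members (7.98%) and 17.6% of windows (odds ratio 0.405, 95% interval 0.339 to 0.485, adjusted p = 3.93e-27), and over the GC strata the odds ratio was 0.566 (0.471 to 0.679). The Klf box CCACCC was lower as well (24.8% of members and 27.5% of windows, odds ratio 0.868, adjusted p = 0.0367, and 0.793 over the strata). AAGATGG, the motif of YY1, was higher, in 4.92 and 3.74% (odds ratio 1.33, adjusted p = 0.0393, and 1.59 over the strata). Both calls varied over 8 other settings with Fisher's exact test. The YY1 call held in 5 of them, and its odds ratio was below 1 in 2. The Klf box call held in 3, and its odds ratio was above 1 in 1.

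The calls for Tead (GGAATG), Tcf and Lef (CTTTGA) and Nrf1 (GCGCATGC), all lower in members, did not hold over the GC strata, where the odds ratios were 0.997, 0.868 and 0.70 with adjusted p-values of 0.983, 0.525 and 0.204. The Ets motif CCGGAAG (8.94 and 8.57%) and the CTCF motif AGGGGGC (10.6 and 10.4%) were called over the strata only, higher for Ets (1.29) and lower for CTCF (0.809). The other motifs searched were not called in either comparison. These were the cAMP response element TGACGTCA and its shorter form TGACGT, the TATA box TATAAA, E2f (TTTCGCGC or TTTGGCGC), Kaiso (CTCGCGAG), AP-1 (TGANTCA), Runx (TGTGGT), Sox (ACAATG), homeodomain (TAATTA) and Smad (GTCTAGAC or CAGAC). All motifs were searched on both strands. Some overlap, since the E-box count holds every core form and the cAMP response element holds its shorter form.

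**Figure D3:**
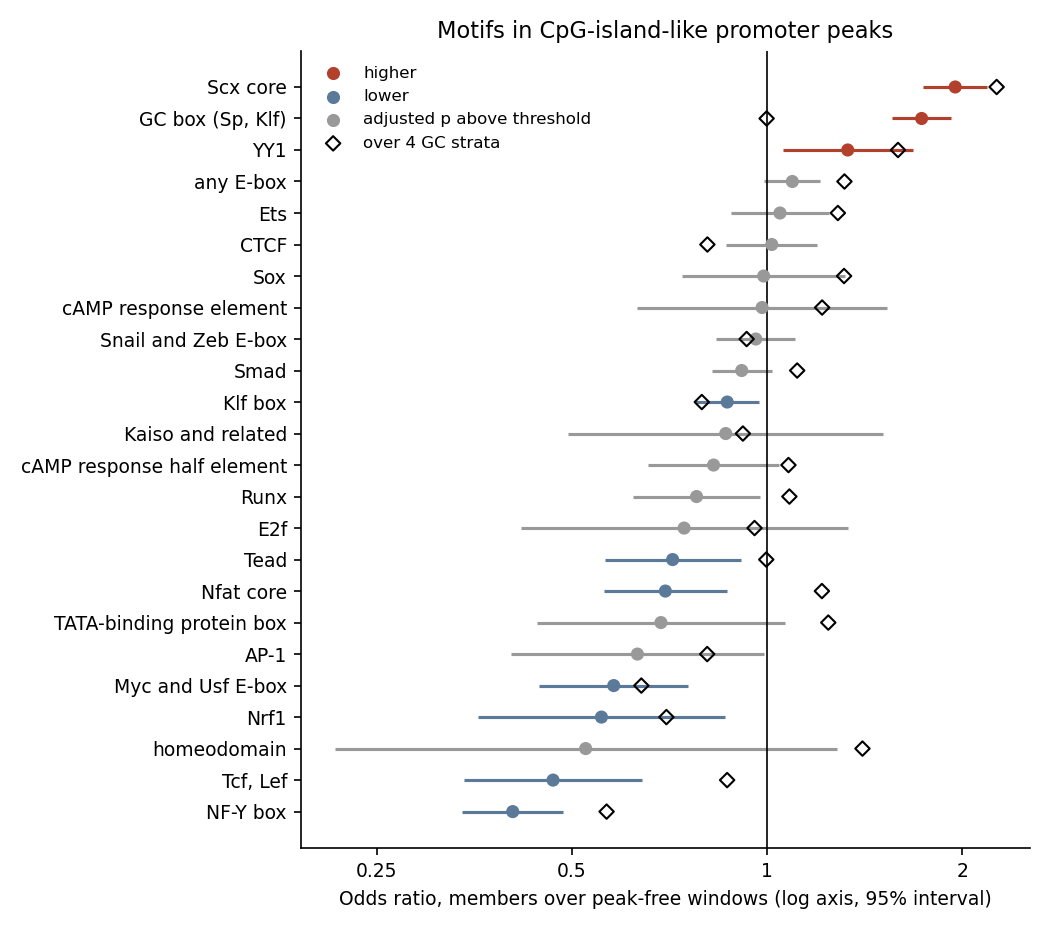
Odds ratio of holding each motif, CpG-island-like promoter peaks over peak-free windows, on a log axis with 95% intervals; filled points are colored by the call at an adjusted p of 0.05, and open diamonds are the odds ratios over 4 strata of GC content. The Scx core stands at 1.95 and 2.26, while the GC box moves from 1.73 to 0.999.

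The members lay at promoters of 1732 genes, 1385 of them protein-coding, since 1 peak can lie in the span of several genes. A single member peak was found at 1537 genes, 2 at 175, 3 at 17 and 4 at 3 genes. Counted over the 16734 genes with a CpG-island-like promoter, 10.4% (9.90 to 10.8) held a member peak. A gene without a member peak is not thereby free of Scx peaks. It may hold 1 of the 1250 peaks of like composition beyond the +100 bp limit, which are not counted here or in the gene lists below. A peak outside promoters lay within 50 kb of the start site of 549 of the 1385 protein-coding member genes (39.6%, 37.1 to 42.2), against 3893 of 11612 protein-coding genes with such a promoter and no member peak (33.5%, 32.7 to 34.4). Since the promoter span ends at +100 bp, such a peak can lie just downstream of the start site. The count is thus not one of distant peaks alone.

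Member genes had a higher level than other genes with such promoters. Among the 1412 found in the expression table, the median of the authors' mean was 12.3 FPKM in Scx-/- cells (quartiles 5.61 and 24.6) and 12.3 FPKM in control cells (quartiles 5.76 and 24.6). Genes with a CpG-island-like promoter and no member peak had medians of 6.84 and 6.89 FPKM, and all 15497 matched genes 5.70 and 5.73 FPKM. The share of CpG-island-like promoters with a member peak was 4.34% (77 of 1774 genes) below 1 FPKM, 7.58% from 1 to 5 FPKM, 11.9% from 5 to 10 FPKM, 14.8% from 10 to 20 FPKM, 17.0% from 20 to 50 FPKM and 17.2% (147 of 857 genes) at 50 FPKM or more. The share thus increased over the lower levels and was level above 20 FPKM.

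The core followed the opposite order. It was in 38.8% (33.2 to 44.8) of the 268 members whose most expressed gene was below 5 FPKM, in 26.5% of 669 members from 5 to 20 FPKM, and in 21.3% (18 to 24.99) of 526 members at 20 FPKM or more. The peaks of the most expressed genes thus held the core least often. Their GC content was not matched in this count.

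Very few members lay on the X chromosome. It held 5 members (0.300%, 0.128 to 0.701), 6 CpG-poor promoter peaks (1.28%) and 113 of the 9961 peaks outside promoters (1.13%), while 3.35% of the peak-free windows were on it. Of 522 X-linked genes with a CpG-island-like promoter, 7 (1.34%, 0.651 to 2.74) held a member peak, against 1725 of 16212 autosomal genes (10.6%, 10.2 to 11.1). The 19 autosomes ranged from 8.11 to 13.1%. Among genes with a mean of at least 5 FPKM the shares were 4 of 241 on X (1.66%) and 12.4 to 19.4% on the autosomes. The median level of X-linked genes with such promoters, 7.15 FPKM, was within the range of the autosomes.

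**Figure D4:**
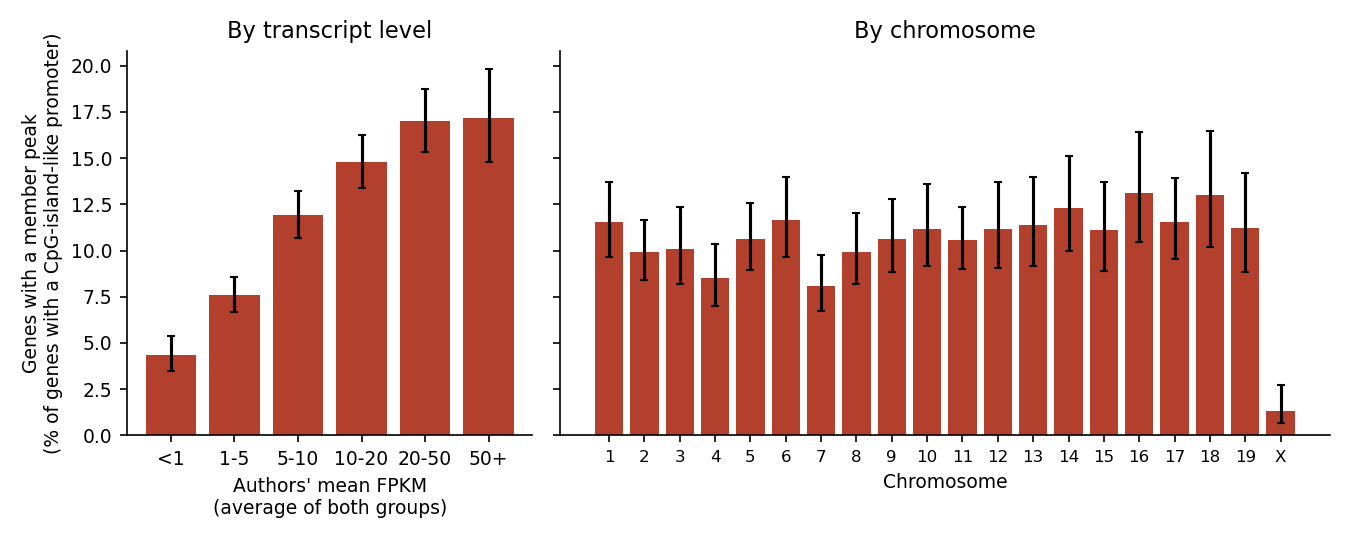
Percent of genes with a CpG-island-like promoter that held a member peak, by the authors' mean FPKM averaged over Scx-/- and control cells (left panel) and by chromosome (right panel), with 95% Wilson intervals. The share runs from 4.34% below 1 FPKM to 17.2% at 50 FPKM or more, and is 1.34% on X.

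The most expressed genes with a member peak were mostly genes of protein synthesis and RNA handling. This order is one of transcript level and not a trait of the peaks. Of cytosolic ribosomal protein genes with a CpG-island-like promoter, 6 of 81 (7.41%) held a member peak. Among those with the highest level were Rpl32, Rpl10a, Rpl8, Rps29 and Rpl38, which encode ribosomal proteins, Nedd4, a ubiquitin ligase, Ppia, the prolyl isomerase cyclophilin A, and the splicing regulators Hnrnph1 and Srsf5. Their levels in Scx-/- cells ran between 339 FPKM in Srsf5 and 1089 FPKM in Rpl32, and in control cells between 351 FPKM in Rpl38 and 1085 FPKM in Rpl32. Ribosomal protein genes and Ppia have many processed copies in the genome, so their reads may have been shared with these. Of the peaks of these 9 genes, that of Rpl32 alone held a Scx core, a single CATCTG in a peak at -295 bp. The peaks of Hnrnph1 (+92 bp), Rpl8 (+84 bp), Rpl10a (+27 bp) and Srsf5 (+25 bp) lay just inside the transcribed unit.

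Several genes had more than 1 member peak. Each distance is to a TSS near that peak, so peaks of the same gene can be measured from different start sites. The most expressed of them were Uqcrh, a subunit of respiratory complex III, H3f3a, which encodes histone H3.3, Ndufa4, a subunit of the respiratory chain, Rab7, a GTPase of late endosomes, and Btf3, a subunit of the nascent polypeptide complex. In Ndufa4 (128 FPKM in Scx-/- and 117 FPKM in control cells), a peak at +44 bp had no core and a peak at -417 bp had 1 CAGCTG. In Uqcrh, the peak at -526 bp held CATATG, and the peak at -786 bp printed above held none. Both peaks of H3f3a, Rab7 and Btf3 were without a core. The paired peaks of H3f3a, Rab7 and Btf3 overlapped each other, and 95 members overlapped the next member, so that such pairs share sequence.

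The gene lists are descriptions without a test, beside the 10.4% of all genes with a CpG-island-like promoter, and the intervals of many lists include that share. The lists were not matched for transcript level. Over all such genes in the expression table the share was 17.0% from 20 to 50 FPKM and 17.2% at 50 FPKM or more. A share above 10.4% is therefore not by itself a trait of a list. The highest share was in actin cytoskeleton and adhesion, where 15 of 39 genes (38.5%, 24.9 to 54.1) held a member peak. Its most expressed members were Tpm4 and Tpm1, tropomyosins that bind along actin filaments, Cfl1, the actin-severing protein cofilin, and Actg1, cytoplasmic gamma actin. Peaks at Tpm4 (+68 bp), Cfl1 (-17 bp) and Tpm1 (-4 bp) each held 1 CAGCTG, while that of Actg1 (+78 bp) had no E-box. Tpm4 had 264 FPKM in Scx-/- cells and 285 FPKM in control cells, Cfl1 221 and 234 FPKM, Actg1 173 and 176 FPKM, and Tpm1 116 and 125 FPKM.

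The TGF-beta and BMP pathway, whose TGF-beta arm is a known inducer of Scx, had a member peak at 10 of 35 genes (28.6%, 16.3 to 45.1). The receptors of the pathway are serine/threonine kinases that phosphorylate Smad proteins. Tgfbr2, the receptor that binds TGF-beta, had a peak at -2 bp with 1 CAGCTG, at 49.6 FPKM in Scx-/- cells and 52.3 FPKM in control cells. Tgfbr1, the receptor that Tgfbr2 activates, had a peak at +99 bp without a core. Acvr1, a receptor of BMPs, and Smurf2, a ubiquitin ligase that limits receptor and Smad levels, each had 2 peaks without a core and with 1 to 6 GC boxes.

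Of the ubiquitin E2 enzymes, which carry ubiquitin or a related protein to ligases, 9 of 33 (27.3%, 15.1 to 44.2) held a member peak. Ube2d3 (-406 bp) had 2 CAGCTG sites, whereas Ube2r2 and Ube2e3 had no core. In the Hippo pathway, which restrains growth through the coactivators Yap1 and Wwtr1, 6 of 24 genes (25%, 12 to 44.9) held one, among them the atypical cadherin Fat1, the DNA-binding partner Tead1, the scaffold Sav1 and the kinase Lats2. None of these 4 peaks held a core.

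The list of helix-loop-helix partners and Id genes had 4 of 18 (22.2%, 9.0 to 45.2). Tcf4 and Tcf12 encode E proteins, the class with which tissue-specific helix-loop-helix factors pair. Tcf4 had 1 peak (-42 bp) with CATATG, at 85.4 FPKM in Scx-/- cells and 88.5 FPKM in control cells. Tcf12 had 2 overlapping peaks (+59 and +79 bp, from different start sites) without a core, at 77.6 and 75.5 FPKM. Twist1 (+51 bp), a factor of early limb mesenchyme, had none, and Bhlhe40, a repressor linked to the circadian clock, had the CAGCTG printed above.

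Chromatin regulators had 6 of 32 genes (18.8%, 8.89 to 35.3), among them Crebbp, a histone acetyltransferase, Dnmt3a, a DNA methyltransferase, and Kmt2a, a histone H3 methyltransferase. Of these, Dnmt3a held 1 core site, CAGCTG, in its peak at -480 bp, and Kmt2a held the 2 sites printed above. Splicing factors had 11 of 64 (17.2%, 9.88 to 28.2) and the FGF pathway 4 of 24 (16.7%, 6.68 to 35.9), among them Fgfr2, a receptor, Frs2, its docking protein, and Spred2, an inhibitor of the pathway. Zfp zinc finger genes had 42 of 269 (15.6%, 11.8 to 20.4).

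Of the 43 genes of the tendon list, 22 had a CpG-island-like promoter, and 3 of these (13.6%, 4.75 to 33.3) held a member peak: Col6a2, a chain of collagen VI, Fbn1, the microfibril protein fibrillin-1, and Nfatc4, a calcineurin-dependent transcription factor. Fbn1 (+42 bp) had 2 CAGCTG sites and 106 FPKM in Scx-/- cells against 105 FPKM in control cells. Col6a2 (-113 bp) had an Nfat core and no Scx core, with 190 FPKM in Scx-/- cells and 185 FPKM in control cells. Limb patterning factors had 2 of 36 (5.56%, 1.54 to 18.1), namely Gli3, a mediator of Hedgehog signaling with 2 peaks, and Pbx3, a partner of Hox proteins.

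None of 37 genes of proteasome subunits (upper limit 9.41%), 36 cell cycle genes (upper limit 9.64%) and 35 aminoacyl-tRNA synthetases (upper limit 9.89%) with a CpG-island-like promoter held a member peak. Scx peaks beyond +100 bp were not counted for these genes, so they are not shown to be unbound. Mitochondrial ribosomal proteins had 3 of 73 (4.1%, 1.41 to 11.4), the respiratory chain and ATP synthase 4 of 71 (5.63%, 2.21 to 13.6), cytosolic ribosomal proteins 6 of 81 (7.41%, 3.44 to 15.2) and Rab GTPases 4 of 53 (7.55%, 2.97 to 17.9), and all 4 of these intervals include 10.4%. The interval of cytosolic ribosomal proteins ends below the 17.2% of all such genes at 50 FPKM or more. The rest ranged from 7.14% (1 of 14 host genes of small nucleolar RNAs) to 10.3% (7 of 68 genes of RNA polymerase II and mediator).

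Within these lists, single genes with a core stood beside others without. The peak of Sec61b (-427 bp), a subunit of the channel through which new secreted proteins enter the endoplasmic reticulum, held a CAGATG, and that of P4ha1 (+66 bp), a prolyl 4-hydroxylase of collagen, held none. Mrpl14 (-471 bp) had 2 CATCTG sites and Mrpl40 a CAGCTG in 1 of its 2 peaks, while Mrpl3 (+74 bp) had none, all 3 being proteins of the mitochondrial ribosome. The 4 translation initiation factors named by level, Eif4g1, Eif5, Eif5a and Eif2a, had no core, and the same held for the respiratory chain genes Cox7c (-20 bp) and Atp5j (+35 bp).

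Regulators of transcription in these lists were similarly mixed. Of the zinc finger genes, Zfp106 (+86 bp) held a CAGATG and Zfp871 (-532 bp) a CAGCTG site together with a CATCTG site, whereas Zfp521 and Zfp664 held none. Polr2m, a subunit of RNA polymerase II, had 3 peaks without a core, which overlapped in a chain. Their distances were +91, -567 and -714 bp, the first taken from another start site than the rest. Gtf2e2 and Gtf2a1, general transcription factors, and Med15, a mediator subunit, had none either. Among immediate early genes, Jund (+65 bp) and Klf10 (-568 bp) had no core, at 4.14 and 9.23 FPKM in Scx-/- cells and 3.84 and 9.67 FPKM in control cells.

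On the scale log2(FPKM + 1), no gene with a member peak differed by 1.5-fold between Scx-/- and control cells. Over all genes with at least 1 FPKM in 1 group, 18 of 12174 (0.148%) were at least 1.5-fold higher and 31 (0.255%) at least 1.5-fold lower in Scx-/- cells. Among the 1337 member genes that passed this minimum, the counts were 0 higher and 0 lower. The added 1 understates the ratio of genes with low levels. With nothing added, an alternative chosen after seeing the data, 92 of all genes (0.756%) were past 1.5-fold higher and 94 (0.772%) lower, and among member genes the counts were 3 higher and 0 lower. The 3 genes were Adgrb3 (4.05 FPKM in Scx-/- and 2.67 FPKM in control cells, 1.52-fold), Wwox (2.61 and 1.56 FPKM, 1.68-fold) and 1810062O18Rik (1.47 and 0.854 FPKM, 1.72-fold), named after their values were seen. On the log2(FPKM + 1) scale, the median log2 ratio was -0.0011 in member genes and -0.00026 over all matched genes. The central 90% of member genes lay between -0.15 and 0.17, and that of all matched genes between -0.20 and 0.22. Member genes had higher levels, and neither these spreads nor the counts past 1.5-fold were matched for level. These ratios of group means were not tested here, since no values of single samples were used and the authors' own test columns were left out.

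The largest ratios at 5 FPKM or more were modest. The lowest were Hist1h3e, a histone H3 gene (26.7 FPKM in Scx-/- and 37.2 FPKM in control cells, log2 ratio -0.46), Rflnb, a regulator of filamins (11.8 and 16.5 FPKM, -0.46), L3hypdh, a dehydratase (6.56 and 9.03 FPKM, -0.41), Fat3, an atypical cadherin (5.72 and 7.38 FPKM, -0.32), and Hmga1, an architectural chromatin protein (6.95 and 8.89 FPKM, -0.31). The highest were Prss23, a serine protease (6.83 and 5.24 FPKM, 0.33), Tcta (7.36 and 5.74 FPKM, 0.31), Klhl28 (6.79 and 5.34 FPKM, 0.30), Nnt, the mitochondrial transhydrogenase (15.1 and 12.1 FPKM, 0.30), and P3h2, a prolyl 3-hydroxylase of collagens (24.3 and 19.96 FPKM, 0.27). Among the genes with lower means, the peaks of Hist1h3e and Hmga1 held a CAGCTG. Among those with higher means, Nnt and P3h2 had 2 core sites each and Klhl28 had 1, while Prss23 and Tcta had none.

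**Figure D5:**
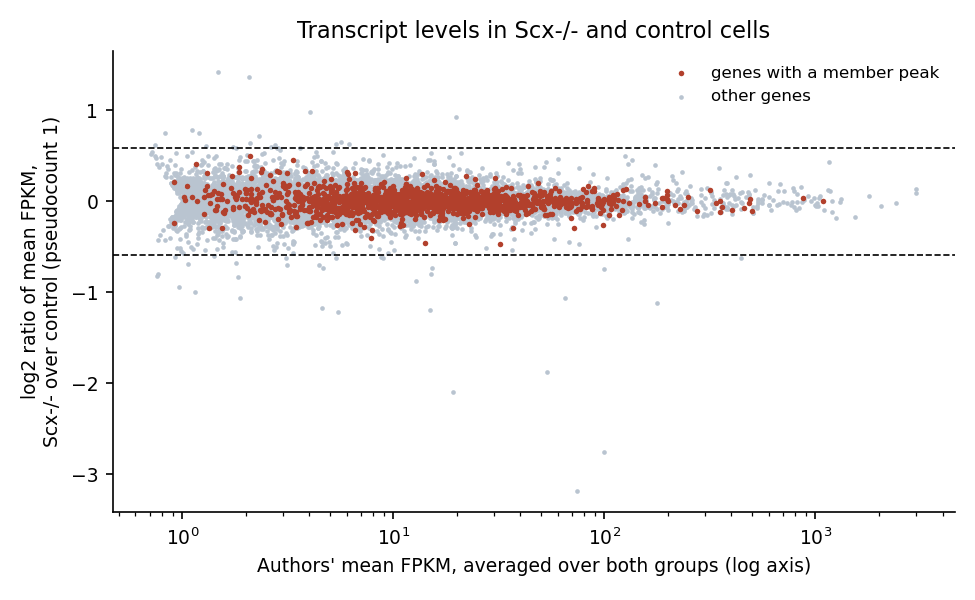
Log2 ratio of the authors' mean FPKM, Scx-/- over control, with 1 added to each mean, against the mean FPKM averaged over both groups on a log axis, for genes with at least 1 FPKM in 1 group. Dashed lines mark 1.5-fold, and all 1337 genes with a member peak (red) lie between them.

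Genes that the study discusses and that held a member peak were Adgrb3, Ccdc88a, Fat3, Nfatc4 and Rflnb. Rflnb had 1 peak at -56 bp with 4 GC boxes and no core, and Fat3 1 peak at -896 bp with neither. Ccdc88a, an actin-binding protein also known as girdin, had 1 peak at its TSS without a core, with 33.1 FPKM in Scx-/- cells and 40.8 FPKM in control cells (log2 ratio -0.29). Adgrb3, an adhesion receptor, had 2 peaks without a core at start sites far apart, at chr1:25830354-25830553 (-747 bp) and chr1:25228690-25228889 (+36 bp). Its level was 4.05 FPKM in Scx-/- cells against 2.67 FPKM in control cells (log2 ratio 0.46). Nfatc4 had the single CAGATG printed above, with 19.996 FPKM in Scx-/- cells and 19.3 FPKM in control cells (log2 ratio 0.05).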

How the data were processed

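ChIP-seq peaks of Scx (3 ChIP and 3 input samples of E13.5 Scx Flag/Flag forelimbs) and mean transcript levels (3 Scx-/- and 3 control samples of E15.5 GFP+ forelimb cells) were used as the authors deposited them. Per the authors' methods, ChIP reads were aligned to mm10, brought to equal depth, freed of duplicates, called per sample against input, merged over replicates and kept by a fold and FDR limit. The deposited peak table gives positions of peaks, all 200 bp wide, and a score of 0 for every peak, so no height or depth per peak is known. Tools listed in the submitters' processing notes were HOMER 4.11, STAR 2.7.4, Subread, featureCounts, DESeq2 and edgeR. The authors deposited the mean FPKM of each group, and also a fold change, a p-value, an FDR and a call of their own, which were not used. The annotation behind the FPKM was not given in the sources used here.

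Peak positions were placed on GRCm38.p6, whose lengths of chromosomes 1 and X are 195471971 and 171031299 bp, with GENCODE M21 basic transcripts, and sequences were read from that genome. Of 15671 symbols, 15497 were matched to GENCODE, 200 through an older symbol, and 21 symbols turned into dates were left out. A peak was assigned to every gene with a TSS in its span. Peak-free windows were tiles with midpoints every 200 bp from -900 to +100 bp. The central share of core sites was tested against the exact share of searched positions. Genes named were the 5 most expressed with 2 or more member peaks, the 10 most expressed, the 5 with the largest ratio in each direction at 5 FPKM or more, up to 4 per gene list, and those the study discusses. Some genes that these rules take are not reported here. The members and the 24 lists were chosen with earlier results of these data known. Motif and place tests were tested on simulated sequences first. Both simulated sets had the same base composition, so the difference in GC content between members and windows was not covered. A Fisher's exact test of the place of members against CpG-poor promoter peaks was run but is not reported, because the rule itself used both place and composition. Alternatives changed the composition rule, the span, the search width, the reference, the GC range, the pseudocount, the FPKM minimum and the fold. Python 3.11.15, numpy 2.4.6, pandas 2.3.3, scipy 1.17.1, statsmodels 0.14.6 and matplotlib were used. Sequence from chromosome 18 was not printed.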

Additional observations from a re-analysis of the deposited data

How the results depend on the processing

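No paired analysis was possible because the peak table and the expression table hold no values of single samples, and for the same reason no replicate could be left out. The number of members was between 1437 and 1697 under 6 other rules of composition, TSS set, span and merging, and 2916 with a span to +1000 bp. The Scx core stayed more frequent in members under all 9 other settings, with odds ratios of 1.18 (windows 2000 bp beside the peaks, whose GC content was not matched) to 3.20 (GC share 0.55 to 0.65). For any E-box the odds ratio passed the threshold at 1.29 (100 bp searched), 1.62 (GC share 0.55 to 0.65), 1.18 (GC share above 0.65), 1.14 (1 peak per gene), 1.19 (genes of at least 1 FPKM) and 1.32 (over GC strata), and reversed to 0.464 against the windows beside the peaks. The Nfat core was at 0.827 (100 bp searched) and 0.927 (GC share above 0.65), no longer past the threshold, and reversed to 1.29 (GC share 0.55 to 0.65) and 1.22 (over GC strata). Of the other motifs, 2 were higher and 6 lower. The number higher was 0 at a GC share of 0.55 to 0.65, 1 for genes of at least 1 FPKM and 10 against the windows beside the peaks, and the number lower was 3 with 100 bp searched, 1 at a GC share of 0.55 to 0.65, 9 against the windows beside the peaks and 4 over GC strata. Against the windows beside the peaks, CAGATG or CATCTG turned to an odds ratio of 0.70 and CACGTG to 1.73, while the CCAAT box stayed lower in members under all 8 of the settings with Fisher's exact test, and CACGTG was at 1.22 at a GC share of 0.55 to 0.65. The cause of these shifts was not tested. The place of core sites kept its direction and call in both alternatives. The median of mean FPKM was 12.3, and 13.1 with genes below 1 FPKM left out. With a pseudocount of 0.1, 2 member genes were past 1.5-fold higher, Wwox (2.61 FPKM in Scx-/- and 1.56 FPKM in control cells) and 1810062O18Rik (1.47 and 0.854 FPKM), named after their values were seen. With nothing added the count was 3 higher, with Adgrb3 as the third, and the 4 other alternatives gave 0 in both directions.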
